A study of Homo sapiens with 9 samples.

Results

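Genes of the HSP90 machinery, the small heat-shock proteins and the heat-shock factors were examined by RNA sequencing after LINC00673 knockdown in the human breast cancer line MDA-MB-453. They were taken by gene symbol and make up 10 of the 19930 genes with values, namely HSP90AA1, HSP90AB1, HSPB1, HSPB8, HSF1, HSF2, AHSA1, STIP1, FKBP4 and CHORDC1. The 9 libraries fall into 3 groups of 3, and the cells were transfected with Lipofectamine 2000. The labels give a harvest 48 h after transfection for quantitative PCR and state no time for the sequenced RNA. The X453_NC group is labelled control, and the X453_1 and X453_2 groups are both labelled Linc00673 knockdown. They are called control, knockdown 1 and knockdown 2 here. The study states that siRNA was used to lower LINC00673 in the sequenced cells. The numbering of the groups matches that of the study's pair of siRNAs, but the labels name no siRNA. Within each group the libraries carry no suffix, r1 or r2. As no label says whether they came from separate cultures, p-values measure the spread between these libraries, which may be technical. The knockdown was transient and made in 1 cell line, and LINC00673 itself was not analysed here.

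HSP90 is an abundant ATP-dependent chaperone that completes the folding of kinases, steroid receptors and many other client proteins. HSP90AA1 encodes the stress-inducible cytosolic form and HSP90AB1 the constitutive cytosolic form. Co-chaperones bind HSP90 in turn: STIP1 (HOP) bridges HSP70 and HSP90 and passes on the client, AHSA1 stimulates the ATPase of HSP90, FKBP4 is a peptidyl-prolyl isomerase of steroid receptor complexes, and CHORDC1 is a zinc-binding partner of HSP90. Small heat-shock proteins such as HSPB1 and HSPB8 hold unfolded proteins without ATP. HSF1 is the main transcription factor of the heat-shock response. It is held inactive in unstressed cells and is regulated largely at the protein level. HSF2 is a related factor that can form trimers with HSF1. Both bind heat-shock elements, which are inverted repeats of the bases GAA.

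Promoter sequences are given first for 5 of the 6 members found to hold the letters of a heat-shock element. The window of HSPB8 also holds them and is described without its sequence. The RefSeq windows, of the GRCh38.p14 build, run from 250 bases before to 50 bases after a gene's start site. They were used for 8 of the 10 members, in 14 windows. No window was available for FKBP4, and HSF1 was left out of the search of members, so both are named only. Both strands were searched for 2 adjoining units, GAANNTTC or TTCNNGAA, and for 3, GAANNTTCNNGAA or TTCNNGAANNTTC, and any 3 units also contain 2. Capitals mark every base that lies in a match.
HSP90AA1 (chr14:102086995-102087294, reverse strand): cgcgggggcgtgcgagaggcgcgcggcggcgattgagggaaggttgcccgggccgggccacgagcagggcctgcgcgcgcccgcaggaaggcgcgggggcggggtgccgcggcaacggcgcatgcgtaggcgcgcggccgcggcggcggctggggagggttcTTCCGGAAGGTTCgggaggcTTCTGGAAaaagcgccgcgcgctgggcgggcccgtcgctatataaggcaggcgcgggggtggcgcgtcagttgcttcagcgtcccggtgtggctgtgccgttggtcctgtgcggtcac
HSP90AB1 (chr6:44247693-44247992, forward strand): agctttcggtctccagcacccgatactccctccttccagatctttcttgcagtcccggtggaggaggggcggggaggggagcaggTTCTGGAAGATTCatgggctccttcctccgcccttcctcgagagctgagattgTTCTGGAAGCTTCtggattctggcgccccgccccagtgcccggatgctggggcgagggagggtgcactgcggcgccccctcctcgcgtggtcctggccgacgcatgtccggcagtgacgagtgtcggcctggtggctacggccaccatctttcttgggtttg
CHORDC1 (chr11:90223000-90223299, reverse strand): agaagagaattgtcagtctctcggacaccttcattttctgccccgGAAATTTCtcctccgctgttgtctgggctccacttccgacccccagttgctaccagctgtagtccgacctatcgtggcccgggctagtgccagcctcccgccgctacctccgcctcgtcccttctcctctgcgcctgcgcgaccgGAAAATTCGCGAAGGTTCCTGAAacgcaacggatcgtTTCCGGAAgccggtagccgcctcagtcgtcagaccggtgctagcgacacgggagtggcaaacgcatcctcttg
HSPB1 (chr7:76302423-76302722, forward strand): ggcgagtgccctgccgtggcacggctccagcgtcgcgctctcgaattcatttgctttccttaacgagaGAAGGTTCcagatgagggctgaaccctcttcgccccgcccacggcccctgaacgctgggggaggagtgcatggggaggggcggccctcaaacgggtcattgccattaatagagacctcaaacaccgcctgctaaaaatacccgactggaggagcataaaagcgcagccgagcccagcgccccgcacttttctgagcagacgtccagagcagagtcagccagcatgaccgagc
STIP1 (chr11:64185921-64186220, forward strand): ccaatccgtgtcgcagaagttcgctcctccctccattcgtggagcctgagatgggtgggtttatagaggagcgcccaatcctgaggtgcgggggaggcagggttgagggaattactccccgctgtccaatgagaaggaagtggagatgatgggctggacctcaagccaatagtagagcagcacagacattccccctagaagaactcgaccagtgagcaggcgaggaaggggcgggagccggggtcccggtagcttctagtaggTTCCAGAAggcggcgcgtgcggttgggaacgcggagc
In HSP90AA1, 3 units lay at bases -88 to -76 from the start site, and 2 further units at -68 to -61. The other HSP90AA1 window held no match. The third HSP90AB1 window held 3 units at -165 to -153 and again at -112 to -100 from its own start site. The other HSP90AB1 windows (chr6:44245944-44246243 and chr6:44246851-44247150) held none. Both lie before the third on the forward strand, so these units lie downstream of their start sites. In CHORDC1, overlapping runs of 3 units spanned bases -60 to -38. HSPB1 held 2 units at -182 to -175, HSPB8 at -88 to -81 and at 5 to 12, and STIP1 at 14 to 21, after the start site. The windows of HSF2 and AHSA1 held no match, which says only that these letters are not in them. At least 2 units were thus found in 6 of the 14 member windows searched, each in a different gene, and 3 units in 3 of the 14. Of all 35116 windows, 13.49% held 2 units and 0.49% held 3 units. HSF1 is not in the member counts. A match describes letters and does not show that a factor was bound.

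The libraries held an estimated 24.0 to 28.0 M fragments, read from the steps between low values, and the FPKM (fragments mapped to a gene, divided by transcript length and library depth) of a library summed to 489793.7 to 531889.9. Libraries of the same group correlated more closely (Pearson's r over genes 0.996 to 0.997) than libraries of different groups (0.976 to 0.994), and no pair was identical. The luminal keratins KRT8, KRT18 and KRT19, ERBB2 and FGFR4, expected in this line, were above 1 FPKM in every library. Other markers listed for this line were under or about 1 FPKM, with FOXA1 listed at 0 to 0.04 FPKM, GATA3 at 0.41 to 0.88 FPKM and SPDEF at 0.57 to 1.24 FPKM. A value listed at 0 can also be a failed estimate. Summed markers of leukocytes, fibroblasts and endothelium, mostly COL1A1, came to 4.08 to 4.66 FPKM in control, 6.29 to 6.84 in knockdown 1 and 6.34 to 7.97 in knockdown 2, and their part in the results was not tested. GAPDH, a common reference gene, had mean values of 7308 FPKM in control, 7947 in knockdown 1 and 9835 in knockdown 2, and its rise in knockdown 2 was past the limits used below (log2 fold change 0.43, adjusted p = 5.0e-07).

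A gene was called when its Benjamini-Hochberg adjusted p from limma was at most 0.05 and its fold change at least 1.3, on log2(FPKM + 1). Of the 10 members, 9 passed the filter of a mean of at least 1 FPKM, and HSPB8 did not. In knockdown 1 against control, 5 members were called higher (HSP90AA1, STIP1, CHORDC1, FKBP4 and AHSA1) and 1 lower (HSF1), where 11.0% of the 12884 genes tested were called higher and 15.5% lower. In knockdown 2 against control, the same 5 and HSPB1 were called higher and HSF1 lower, where 10.9% of all genes tested were called higher and 23.0% lower. Between the knockdowns 0 of the 9 members were called in limma, against 2.06% of all genes called higher and 5.32% called lower in knockdown 2. At folds under the limit, the adjusted p was at most 0.05 for 3 members and the unadjusted p for 4. At that adjusted p and any fold, 1313 of the 12884 genes tested were higher in knockdown 2 and 4362 lower. Without regard to a test, the 3 libraries of each group did not overlap for 9 of the 9 members in knockdown 1 against control, for 8 in knockdown 2 against control and for 4 between the knockdowns, where the shares over all genes were 70.0%, 73.0% and 53.7%. Both comparisons with control share the same 3 control libraries. The median log2 fold change of the 9 members was 0.58 in knockdown 1 and 0.64 in knockdown 2, beside 0.003 and -0.095 over all genes tested.

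**Figure D1:**
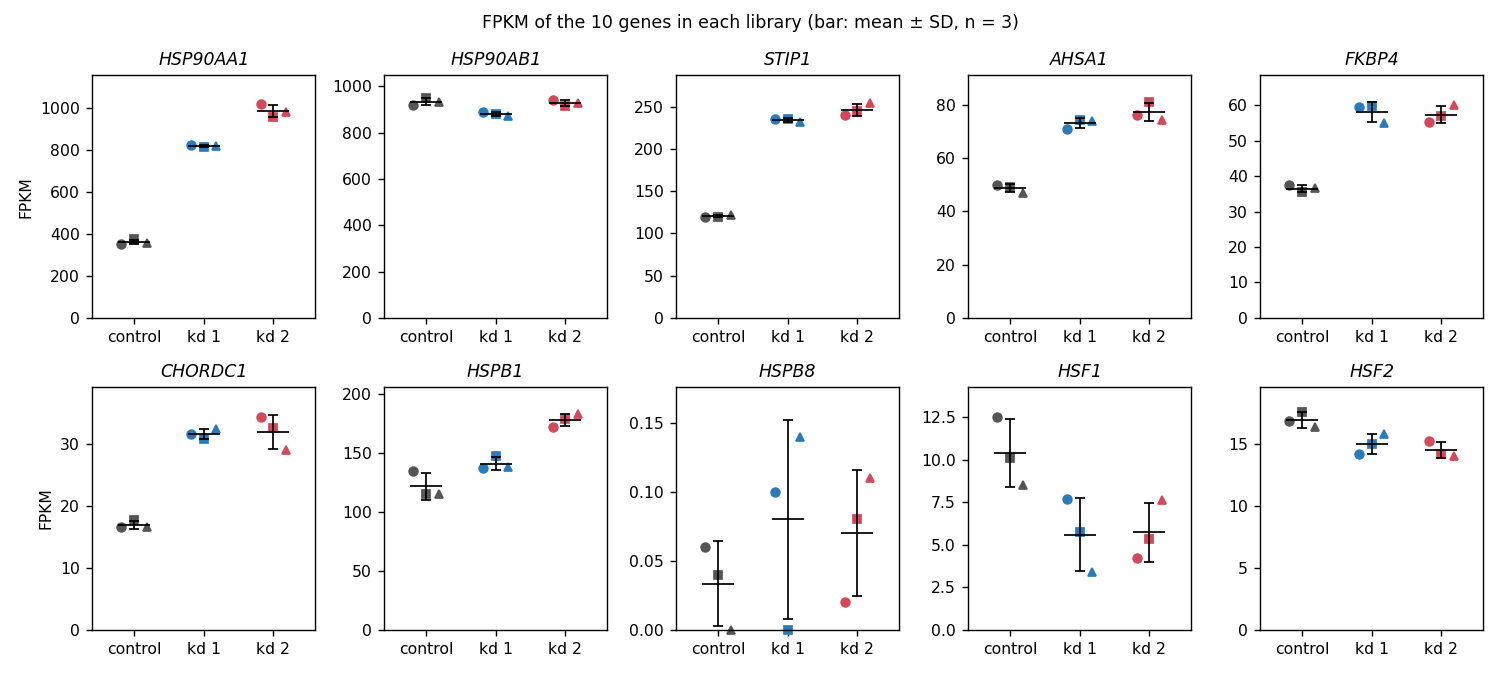
FPKM of each gene (vertical axes, each from 0) in the 3 control, 3 knockdown 1 (kd 1) and 3 knockdown 2 (kd 2) libraries; circles are libraries without a suffix, squares r1, triangles r2, and bars the mean ± SD. The knockdown libraries of HSP90AA1, STIP1, AHSA1, FKBP4 and CHORDC1 all sit above the control libraries, those of HSF1 sit below with a wide spread, and HSPB8 stays at 0.14 FPKM or less.

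The inducible and the constitutive cytosolic HSP90 behaved differently. HSP90AA1 (NCBI gene 3320, chromosome 14, 102547075 to 102606086 on the reverse strand, GRCh37.p13) had 353.18, 373.15 and 357.10 FPKM in control, 824.58, 812.91 and 818.55 FPKM in knockdown 1 and 1015.50, 956.08 and 978.61 FPKM in knockdown 2. The 3 groups did not overlap, and knockdown 2 was the highest. In such bulk samples, more cells with a transcript and more of it per cell cannot be told apart. The mean rose from 361.1 ± 10.6 (SD, n = 3) in control to 818.7 ± 5.84 in knockdown 1 and 983.4 ± 30.0 in knockdown 2. This was a log2 fold change of 1.18 (SE 0.03, adjusted p = 6.0e-09) and of 1.44 (SE 0.03, adjusted p = 5.3e-10), and 66 and 71 of the 12884 genes tested had larger values. Knockdown 2 exceeded knockdown 1 by a log2 fold change of 0.26 (95% interval 0.20 to 0.33, adjusted p = 1.7e-04), a 1.2-fold difference of the means that lies under the fold limit.

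HSP90AB1 (NCBI gene 3326, chromosome 6, 44213903 to 44221625 on the forward strand) had 918.42, 948.68 and 932.89 FPKM in control, 889.55, 880.04 and 872.61 FPKM in knockdown 1 and 940.21, 913.57 and 930.36 FPKM in knockdown 2. Knockdown 1 lay below both other groups, while knockdown 2 and control overlapped. The log2 fold change was -0.08 in knockdown 1 (95% interval -0.14 to -0.03, adjusted p = 0.0095) and -0.01 in knockdown 2 (-0.06 to 0.04, adjusted p = 0.77). The sign of the knockdown 2 value turned under other scalings, to 0.095 with median-ratio scaling and to 0.026 with a GC correction. The interval of each comparison lay inside the fold limit.

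The balance of the paralogs changed accordingly. In each control library HSP90AA1 was at 0.3846, 0.3933 and 0.3828 of the HSP90AB1 level in FPKM, which is per length. The ratio was 0.927, 0.9237 and 0.938 in the knockdown 1 libraries, and 1.08, 1.047 and 1.052 in those of knockdown 2. HSP90AA1 was thus below HSP90AB1 in the control and knockdown 1 libraries and above it in the 3 knockdown 2 libraries. The ratio was 2.4-fold higher in knockdown 1 and 2.74-fold higher in knockdown 2 than in control, with a two-sided exact permutation p of 0.1 for each, the smallest that 3 against 3 libraries allow. The sum of both genes averaged 1290 ± 25 FPKM in control, 1700 ± 13 in knockdown 1 and 1910 ± 43 in knockdown 2 (SD, n = 3), a log2 difference of 0.39 and 0.56 (exact permutation p = 0.1 each). A ratio within a library does not depend on the scaling between libraries, whereas the sum does. Of the 100-base stretches of the reference transcripts, 2.1% for HSP90AA1 and 1.6% for HSP90AB1 also occur in pseudogene copies, and the counting of such reads is not given in the sources used here.

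**Figure D2:**
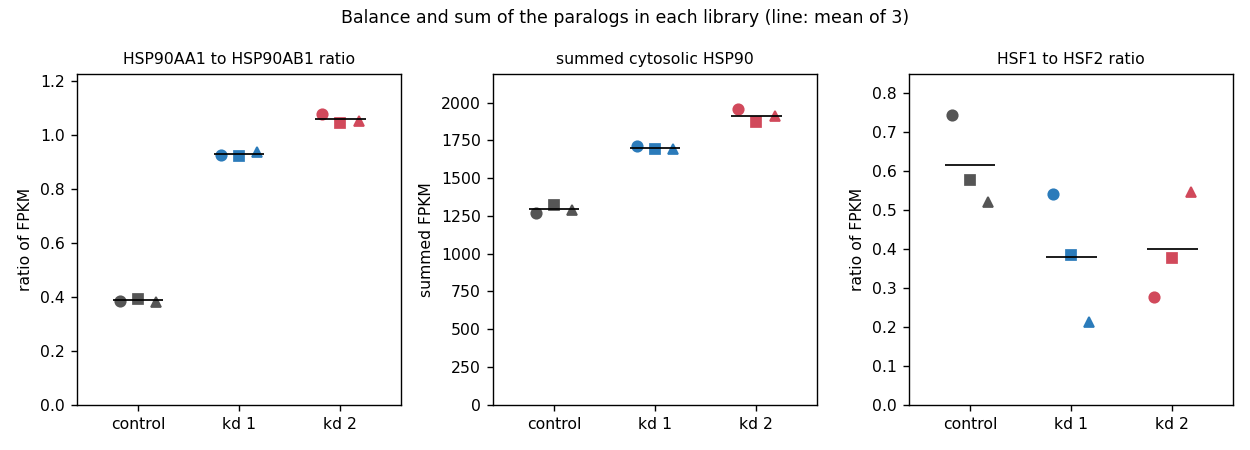
Left, HSP90AA1 over HSP90AB1 (ratio of FPKM); middle, their summed FPKM; right, HSF1 over HSF2 (ratio of FPKM), in control, knockdown 1 (kd 1) and knockdown 2 (kd 2) libraries. Each point is a library (circle, no suffix; square, r1; triangle, r2) and each line the mean of 3; the HSP90 ratio moves from 0.387 in control to 0.93 and 1.06, while the HSF ratios of the groups overlap.

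The other members of the HSP90 family, HSP90B1 of the endoplasmic reticulum and TRAP1 of mitochondria, moved less than HSP90AA1. HSP90B1 had 315.00, 332.47 and 317.29 FPKM in control, 412.91, 390.76 and 393.93 in knockdown 1 and 458.98, 450.84 and 449.82 in knockdown 2. It was called higher in knockdown 2 (log2 fold change 0.49, adjusted p = 4.6e-07), and its value of 0.31 in knockdown 1 (adjusted p = 1.4e-05) was under the fold limit. The values of TRAP1 were -0.05 and 0.03, with adjusted p of 0.30 and 0.50.

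The 4 co-chaperones among the members rose in both knockdowns, with no overlap with control. STIP1 (NCBI gene 10963, chromosome 11, 63952744 to 63972020, forward strand) had 119.55, 119.48 and 121.49 FPKM in control, 235.23, 235.80 and 231.35 FPKM in knockdown 1 and 239.63, 244.91 and 253.97 FPKM in knockdown 2. The control libraries were close to each other, and the mean was 1.95-fold higher in knockdown 1 and 2.05-fold higher in knockdown 2. Its log2 fold changes were 0.96 (SE 0.027, adjusted p = 1.0e-08) and 1.03 (SE 0.027, adjusted p = 1.9e-09), and that between the knockdowns was 0.07 (95% interval 0.01 to 0.13, adjusted p = 0.056).

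CHORDC1 (NCBI gene 26973, chromosome 11, 89933597 to 89959708, reverse strand) had 16.55, 17.68 and 16.64 FPKM in control, 31.67, 30.89 and 32.46 FPKM in knockdown 1 and 34.39, 32.61 and 29.03 FPKM in knockdown 2. The knockdown groups overlapped with each other and not with control. The log2 fold changes were 0.86 (SE 0.057, adjusted p = 1.1e-06) and 0.88 (SE 0.057, adjusted p = 6.3e-07). Its deposited model holds 3 transcripts predicted in this table beside 2 RefSeq transcripts, with a longest transcript of 16811 bases, and the length behind the FPKM is not given in the sources used here, so its level is less certain than its change.

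FKBP4 (NCBI gene 2288, chromosome 12, 2904108 to 2914589, forward strand) had 37.40, 35.51 and 36.58 FPKM in control, 59.61, 59.91 and 54.96 FPKM in knockdown 1 and 55.16, 56.92 and 60.08 FPKM in knockdown 2. The knockdown groups overlapped and both lay above control. They differed by a log2 value of -0.02 (95% interval -0.12 to 0.08, adjusted p = 0.75) whose sign turned to 0.084 with median-ratio scaling and 0.064 with a GC correction. Against control the log2 fold changes were 0.66 (SE 0.044, adjusted p = 1.3e-06) and 0.64 (SE 0.044, adjusted p = 9.0e-07).

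AHSA1 (NCBI gene 10598, chromosome 14, 77924220 to 77935815, forward strand) had 50.00, 49.26 and 46.95 FPKM in control, 71.18, 74.53 and 74.19 FPKM in knockdown 1 and 76.47, 81.17 and 74.49 FPKM in knockdown 2. Its log2 fold changes were 0.58 (SE 0.039, adjusted p = 1.4e-06) and 0.66 (SE 0.039, adjusted p = 3.8e-07). The difference between the knockdowns was 0.08 (95% interval -0.01 to 0.16, adjusted p = 0.14). For each of the 4 co-chaperones the interval of that difference excluded a fold at the limit in either direction.

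**Figure D3:**
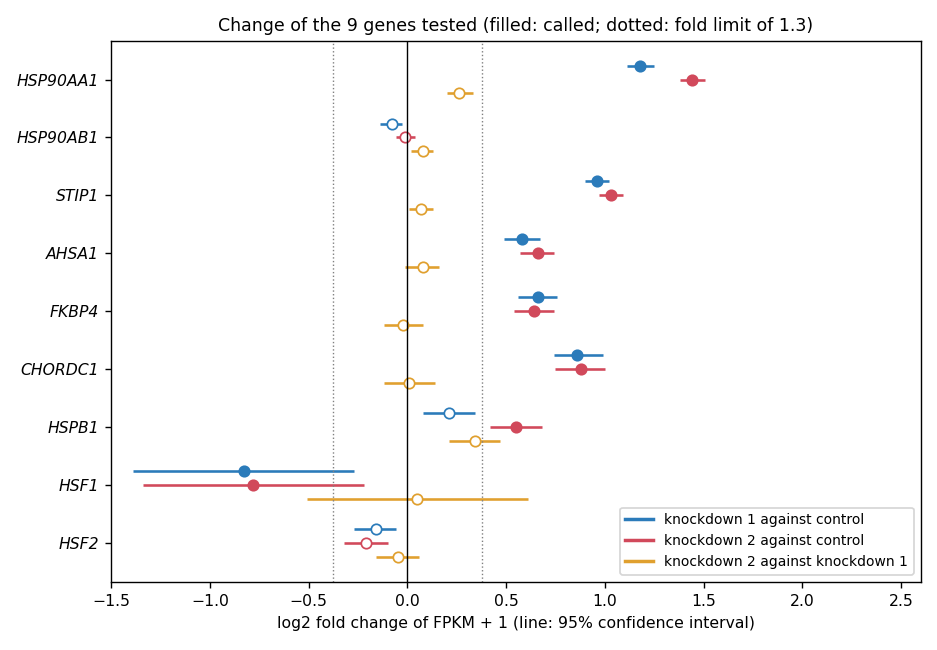
Log2 fold change of FPKM + 1 (horizontal axis) with its 95% interval (line) from limma for the 9 members tested, in 3 comparisons. Filled points were called and open points were not, and dotted lines mark the fold limit of 1.3; HSP90AA1 and the 4 co-chaperones lie right of it against control, HSP90AB1 and HSF2 lie within it, and the intervals of HSF1 are the widest.

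Most other HSP90 co-chaperones listed were not called. Of the 33 beside the 4 members, 3 were called higher, 4 lower and 26 not called in knockdown 1. Over all genes tested, 11.0% were called higher and 15.5% lower there. In knockdown 2, 3 were called higher, 5 lower and 25 not called, where 10.9% of all genes were higher and 23.0% lower. The median log2 fold changes of the 33 were 0.01 and -0.12, near those of all genes (0.003 and -0.095). Members and lists were chosen with earlier results of these data known, so the contrast between the 4 and the 33 is not a test. TOMM34, a cytosolic partner of HSP70 and HSP90, rose from 77.99, 73.22 and 75.00 FPKM in control to 139.91, 139.10 and 139.74 in knockdown 1 and 136.17, 131.93 and 138.58 in knockdown 2 (log2 fold changes 0.88 and 0.84). In the other direction STUB1 (CHIP), a ubiquitin ligase that binds HSP70 and HSP90, fell from 28.50, 24.36 and 27.74 FPKM to 14.89, 15.35 and 15.40 in knockdown 1 and 12.47, 12.67 and 13.18 in knockdown 2 (log2 fold changes -0.78 and -1.01). With a GC correction the STUB1 value in knockdown 1 was -0.31, under the fold limit, and that in knockdown 2 was -0.53. AHSA2, a paralog of AHSA1 now annotated as a pseudogene, had values of -0.84 in both, against the rise of AHSA1. PTGES3 (p23) and CACYBP were the other genes called higher in both knockdowns. They were named after their values were seen.

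HSPB1 (HSP27; NCBI gene 3315, chromosome 7, 75922279 to 75933614, forward strand) was the small heat-shock protein expressed at the highest level. It had 134.58, 115.06 and 115.60 FPKM in control, 137.25, 147.25 and 138.47 FPKM in knockdown 1 and 172.55, 178.81 and 183.27 FPKM in knockdown 2. The groups did not overlap, although the highest control library was close to the lowest of knockdown 1. The log2 fold change was 0.55 in knockdown 2 (SE 0.058, adjusted p = 1.6e-05) and 0.21 in knockdown 1 (95% interval 0.08 to 0.34, adjusted p = 0.0087), the latter under the fold limit. The difference between the knockdowns was itself 0.34 (95% interval 0.21 to 0.47, adjusted p = 0.0015), also under the limit, and 0.44 and past it with median-ratio scaling. The reference transcript of HSPB1 holds 64.47% GC, the highest share of the 10, and with a GC correction the values rose to 0.62 and 0.98, both called. The direction was the same throughout. Its deposited model adds 1 predicted transcript to the RefSeq one, and 5.1% of its 100-base stretches also occur in the copy HSPB1P1.

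HSPB8 (NCBI gene 26353, chromosome 12, 119616595 to 119632551, forward strand), which works with BAG3 in selective autophagy, was barely detected. It had 0.06, 0.04 and 0 FPKM in control, 0.10, 0 and 0.14 FPKM in knockdown 1 and 0.02, 0.08 and 0.11 FPKM in knockdown 2, and the groups overlapped. These are an estimated 0 to 7 fragments per library, so no change was detectable at this depth and no fold is given.

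Of the 11 small heat-shock genes listed, 10 had values and 2, HSPB1 and HSPB11, were above the filter. HSPB11, a subunit of intraflagellar transport that is named with this family, rose from 30.12, 28.02 and 29.28 FPKM to 54.95, 55.67 and 52.17 in knockdown 1 and 74.56, 71.27 and 67.18 in knockdown 2 (log2 fold changes 0.87 and 1.26, adjusted p = 2.5e-07 and 1.4e-08). CRYAB, the alpha-B crystallin, was listed at 0.08 to 0.17 FPKM in control, 0 to 0.17 in knockdown 1 and 0.35 to 0.59 in knockdown 2, and HSPB6 at 0.17 to 0.42, 0.06 to 0.27 and 0 to 0.06 FPKM. CRYAA, HSPB2, HSPB7, HSPB9 and ODF1 were at 0.11 FPKM or less in every library.

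HSF1 (NCBI gene 3297, chromosome 8, 145515251 to 145538389, forward strand) had 12.52, 10.14 and 8.52 FPKM in control, 7.69, 5.75 and 3.37 FPKM in knockdown 1 and 4.21, 5.32 and 7.65 FPKM in knockdown 2. Each knockdown library was below each control library, but the libraries of a group were far apart. The mean was 10.39 ± 2.01 (SD, n = 3) in control, 5.603 ± 2.16 in knockdown 1 and 5.727 ± 1.76 in knockdown 2. The log2 fold changes were -0.83 (SE 0.251, adjusted p = 0.015) and -0.78 (SE 0.251, adjusted p = 0.018), and the knockdowns differed by 0.05 (95% interval -0.51 to 0.61, adjusted p = 0.89). HSF1 was thus called lower, in the direction opposite to HSP90AA1.

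The call of HSF1 depended on the processing and on single libraries. Its coefficient of variation was 19.4%, 38.6% and 30.7% in control, knockdown 1 and knockdown 2, and 98.9% to 99.2% of the genes within 1.5-fold of its level had a smaller one. An estimated 178 to 727 fragments per library stood behind these values. HSF1 has 63.91% GC in its reference transcript. Across the 1850 other genes tested with at least 60% GC, the median deviation from the 9-library mean was 0.29, 0.16 and 0.25 in the control libraries, -0.08, -0.08 and -0.14 in knockdown 1 and -0.24, -0.07 and -0.08 in knockdown 2, on the log2 scale. GC-rich genes as a whole were therefore lower in the knockdown libraries, and lowest in the knockdown 2 library without a suffix, while the lowest HSF1 of all was in the knockdown 1 library r2. With a GC correction the log2 fold changes of HSF1 were -0.45 (adjusted p = 0.073) and -0.37 (adjusted p = 0.12), which were not called. Over the 17 alternatives the adjusted p ran from 0.0047 to 0.073 in knockdown 1 and from 0.0054 to 0.12 in knockdown 2. Without the control library that has no suffix, the values were -0.70 (adjusted p = 0.06) and -0.65 (adjusted p = 0.07), and without the knockdown 2 library that has no suffix the knockdown 2 value was -0.61 (adjusted p = 0.066), all not called. The span of HSF1 overlaps that of DGAT1 on the opposite strand by 144 bases, and use of strand in the counting is not given in the sources used here.

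**Figure D4:**
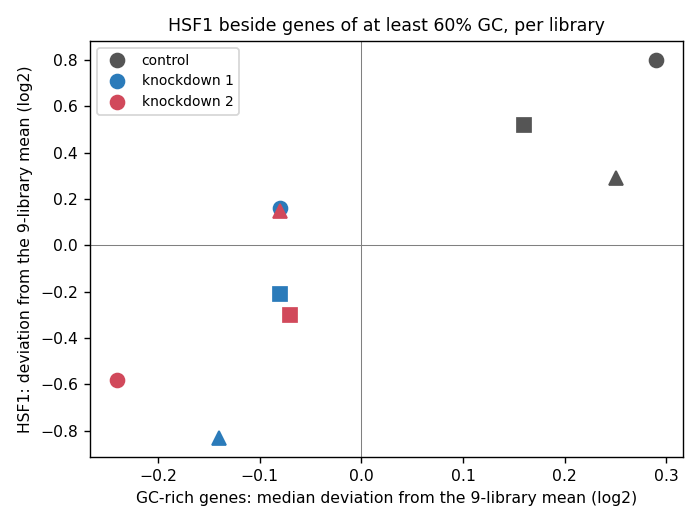
Deviation of HSF1 from its 9-library mean (vertical axis, log2 of FPKM + 1) beside the median deviation of the 1850 other tested genes with at least 60% GC (horizontal axis), 1 point per library; circles are libraries without a suffix, squares r1, triangles r2. The 3 control libraries lie at the upper right, from 0.16 to 0.29 on the horizontal axis, and the 6 knockdown libraries lie at -0.07 or lower.

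HSF2 (NCBI gene 3298, chromosome 6, 122720696 to 122754264, forward strand) was steadier. It had 16.80, 17.57 and 16.34 FPKM in control, 14.18, 14.95 and 15.80 FPKM in knockdown 1 and 15.19, 14.14 and 14.01 FPKM in knockdown 2. Both knockdowns lay below control without overlap, by log2 fold changes of -0.16 (95% interval -0.27 to -0.06, adjusted p = 0.014) and -0.21 (-0.32 to -0.10, adjusted p = 0.0030), which are under the fold limit. HSF1 was at 0.7452, 0.5771 and 0.5214 of the HSF2 level in the control libraries, at 0.5423, 0.3846 and 0.2133 in knockdown 1 and at 0.2772, 0.3762 and 0.546 in knockdown 2. The groups overlapped, and the exact permutation p of the ratio was 0.2 for each knockdown, where 0.1 is the smallest possible. Without the r2 library of knockdown 1 the log2 difference of the ratio was -0.41 in place of -0.78, and without the knockdown 2 library that has no suffix it was -0.42 in place of -0.66.

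Within the wider HSF family, HSBP1, a small protein that binds HSF trimers, rose from 39.78, 39.73 and 37.58 FPKM to 63.78, 66.48 and 69.75 in knockdown 1 and 68.08, 65.03 and 66.10 in knockdown 2 (log2 fold changes 0.76 and 0.75, adjusted p = 2.7e-07 and 1.5e-07). HSF4, a factor best known from the lens, had 22.18, 20.11 and 21.91 FPKM in control, 13.25, 12.85 and 12.55 in knockdown 1 and 11.00, 16.13 and 13.95 in knockdown 2. Its log2 fold changes of -0.69 and -0.62 were called, but with a GC correction they were -0.34 and -0.24 and were not. HSF2BP was under the filter and not tested. It was listed at 0.18 to 0.39 FPKM in control, 0.52 to 0.87 in knockdown 1 and 0.57 to 0.78 in knockdown 2. Neither knockdown overlapped with control at these low values.

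In the order of their control levels, HSP90AB1 and HSP90AA1 ranked 104 and 171 of the 19930 genes by mean FPKM, HSPB1 493, STIP1 504, AHSA1 1417, FKBP4 1957, CHORDC1 4156, HSF2 4175, HSF1 6042 and HSPB8 17273. Neighbours in this order did not differ beyond their spread for HSPB1 (121.7 ± 11.1 FPKM) and STIP1 (120.2 ± 1.14) or for CHORDC1 (16.96 ± 0.628) and HSF2 (16.9 ± 0.621). In knockdown 2 HSP90AA1 ranked 100 and HSP90AB1 106, so that their order turned, and STIP1 ranked 244, above HSPB1 at 344. CHORDC1 moved to rank 2232 and HSF2 to 4443 there. Levels between genes are compared per length in FPKM.

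The other heat-shock genes listed, largely HSP70, HSP40 and HSP110 chaperones, moved with the inducible members and further. Of 21 tested, 15 were called higher in knockdown 1 and 16 in knockdown 2, and 0 were called lower in limma (at an unadjusted p of at most 0.05 and any fold, 2 were lower in knockdown 1 and 0 in knockdown 2). Over all genes tested, 11.0% were called higher and 15.5% lower in knockdown 1, and 10.9% higher and 23.0% lower in knockdown 2. The median log2 fold changes of the 21 were 0.58 and 1.03, beside 0.003 and -0.095 over all genes. HSPA1B, which encodes stress-inducible HSP70, rose from 24.37, 23.94 and 25.08 FPKM to 110.71, 87.88 and 74.44 in knockdown 1 and 553.48, 639.15 and 579.71 in knockdown 2 (log2 fold changes 1.83 and 4.54). The near-identical HSPA1A shares reads with it, so the division between these genes is uncertain, and its values were 1.83 and 4.22. DNAJB1, an HSP40 co-chaperone, rose from 67.37, 65.30 and 67.28 FPKM to 192.45, 181.37 and 184.50 and to 695.72, 639.64 and 621.57 (log2 fold changes 1.47 and 3.27). Between the knockdowns 9 of the 21 were called higher in knockdown 2, where 2.06% of all genes were called higher and 5.32% lower. Of the 9 members tested 0 were called in limma, which is near these shares, and HSPB1 was called with median-ratio scaling (0.44). Both sets of genes were chosen with earlier results of these data known, so setting them side by side is not a test. The DNAJB1 difference was 1.80 (adjusted p = 2.5e-08), beside 0.26 for HSP90AA1.

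HSP90 client kinases and receptors were called in both directions against control. Of 20 tested, 4 were called higher and 3 lower in knockdown 1, with a median of 0.01, where 11.0% of all genes were higher and 15.5% lower. In knockdown 2, 3 were called higher and 8 lower, with a median of -0.19, where 10.9% of all genes were higher and 23.0% lower and their median was -0.095. Between the knockdowns, 4 were called lower in knockdown 2 and the other 16 were not called, with a median of -0.14, where 5.32% of all genes were lower. ERBB3, a receptor of the EGFR family, fell from 46.44, 49.84 and 48.21 FPKM to 31.38, 32.64 and 32.89 and to 22.24, 22.46 and 22.84 (log2 fold changes -0.56 and -1.06). The kinase SRC had values of -0.67 and -0.75, and EGFR, at 0.67 to 1.04 FPKM in control, had values of 0.81 and 0.51.

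**Figure D5:**
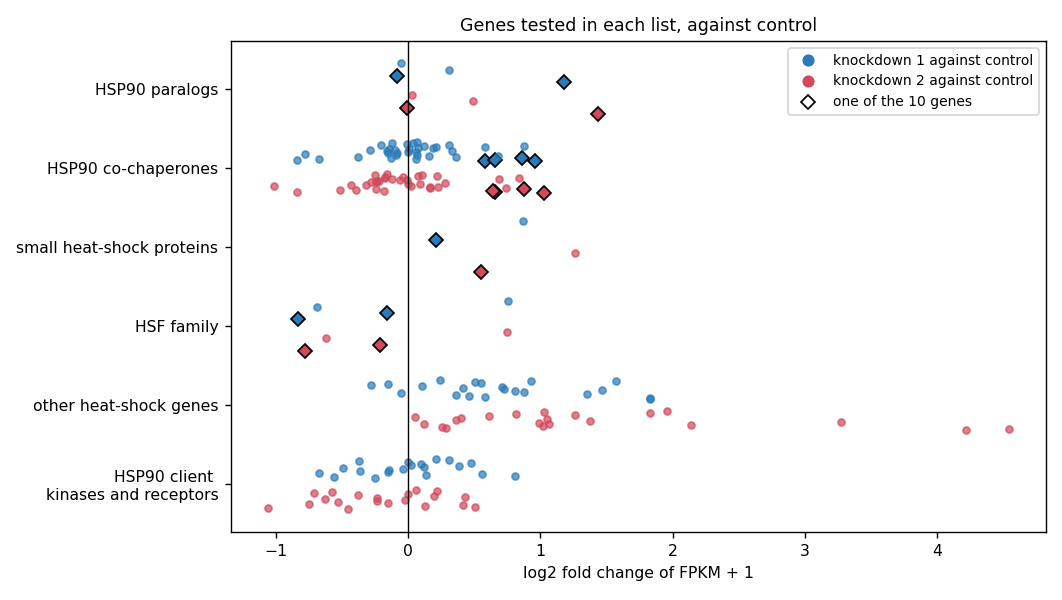
Log2 fold change of FPKM + 1 against control (horizontal axis) for the genes tested in each list (rows; height within a row carries no meaning), in knockdown 1 (blue) and knockdown 2 (red). Diamonds mark members; those among the HSP90 co-chaperones lie from 0.58 to 1.03 while the 33 others centre on 0.01 and -0.12, and the other heat-shock genes reach 4.54.

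By likeness of profile, the genes closest to HSP90AA1 among the 4339 compared were EMP1, DNAJA1 and SLC20A1, with Pearson's r of 0.999, 0.999 and 0.998 over the 9 libraries. DNAJA1 encodes an HSP40 co-chaperone, EMP1 a membrane protein and SLC20A1 a phosphate transporter. Closest to HSPB1 were CD55, CXCR4 and CIB1 (0.990, 0.977 and 0.977), each highest in knockdown 2. The profiles nearest to HSF1 were those of CEMP1, NELFB and NTHL1 (0.956, 0.948 and 0.945), and with a GC correction 0 of these 3 were called lower by limma in either knockdown (at an unadjusted p of at most 0.05 and any fold, 1 was lower in each). The genes compared were those called in at least 1 knockdown, and the 9 points fall into 3 groups, so that r mainly describes the group means.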

How the data were processed

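RNA was measured in 9 libraries of transfected MDA-MB-453 cells, 3 per group, grouped by their labels. Total RNA was extracted with Trizol, and sequencing was done on a BGISEQ-500. The deposited table has a line for each gene and holds FPKM that the authors computed per library, with 2 decimals. The submitters' processing notes name Bowtie2 version 2 and the GRCh37.p13 build, and the counting tool is not given in the sources used here. The deposited table also gives the longest transcript of each gene and, per comparison, the authors' log2 ratios with p-values and q-values, which were not used. It repeats the FPKM a second time, and 4 lines hold no values.

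The 10 members and all gene lists were chosen with earlier results of these data known. Values were taken as log2(FPKM + 1), and the 12884 of 19930 genes whose mean over all libraries reached 1 FPKM were fitted with limma 3.58.1 in R 4.3.3, with group as the only factor and a mean-variance trend. A call needed a fold change of at least 1.3 and a p of at most 0.05 (the study's limits), here after Benjamini-Hochberg adjustment. The study does not say whether its p was adjusted. A fold change on this scale understates the change of low genes. Ratios and sums of 2 genes were compared over libraries by exact two-sided permutation tests. The step across all genes was tested on simulated data.

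Library depth, given in the report, was read from the spacing of low FPKM in 198 to 222 short genes per library; rescaled, these values missed whole fragments by 0.089 to 0.109 on average. Its range is narrow. GC content and shared 100-base stretches came from the GENCODE transcripts of GRCh38, and 86.9% of the genes tested had a GC value. Promoters came from RefSeq. Alternatives were 0.1 FPKM added, no filter or a minimum of 5 FPKM, only the libraries compared, the replicate label as a block, scaling each library by the median ratio of its expressed genes, a GC correction (a smooth curve of each library's deviations on GC content, removed), no trend, other limits, and each library left out.

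The text names the members, every HSP90 paralog, small heat-shock and HSF family gene, GAPDH, the 3 genes of each other list with the largest mean log2 fold change among those called in at least 1 knockdown, and the 3 genes with the profile nearest to HSP90AA1, HSPB1 and HSF1. Figures were drawn in Python 3.11.15 with matplotlib 3.10.9. A gene among the markers of the line is not reported here.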

Additional observations from a re-analysis of the deposited data

Results flagged for a closer look

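For 3 of the 9 members tested, the effects of the knockdowns differed from each other by an adjusted p of at most 0.05 in limma. This was the direct comparison of knockdown 2 with knockdown 1, and each difference was under the fold limit of 1.3. At that adjusted p and any fold, 1313 of the 12884 genes tested were higher in knockdown 2 and 4362 lower. The libraries of the knockdowns did not overlap for 53.7% of all genes tested. The count of 3 is therefore not read as particular to the members. HSPB1 was higher in knockdown 2 by 0.34 on the log2 scale, in 3 of 3 libraries (adjusted p = 0.0015), and by 0.44 with median-ratio scaling. HSP90AA1 was higher by 0.26, in 3 of 3 libraries (adjusted p = 1.7e-04), and its value ran from 0.24 to 0.37 over the 17 alternatives. HSP90AB1 was higher by 0.08, in 3 of 3 libraries (adjusted p = 0.024), with an adjusted p of 9.8e-05 to 0.087 over the alternatives. In the same comparison the median over all genes tested was -0.081, GAPDH was higher by 0.31 (adjusted p = 3.9e-05), and the scaling factors were 0.9517 to 0.958 in knockdown 2 and 1.0238 to 1.031 in knockdown 1. The part of the scaling in these differences was not tested beyond the alternatives given here.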

How the results depend on the processing

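Over 17 alternatives for each of the 27 member values (9 members in 3 comparisons), 437 of 459 kept their direction and their side of the limits, 5 lost the call, 2 gained it and 15 changed sign. The rise of HSP90AA1, STIP1, CHORDC1, FKBP4 and AHSA1 was called in both knockdowns under each of them, and that of HSPB1 in knockdown 2. All values that changed sign were close to 0 or had wide intervals. With median-ratio scaling and with a GC correction, HSP90AB1 in knockdown 2 against control changed to 0.095 and 0.026, and in knockdown 2 against knockdown 1 HSF2 changed to 0.049 and 0.082 and FKBP4 to 0.084 and 0.064. Leaving out 1 library gave -0.02 to 0.004 for that HSP90AB1 value and, between the knockdowns, -0.22 to 0.28 for HSF1, -0.058 to 0.009 for FKBP4 and -0.04 to 0.078 for CHORDC1. HSF1 lost its call with a GC correction (0 members lower in either knockdown). Leaving out 1 library left 0 to 1 members lower: the control library without a suffix removed the HSF1 call in both knockdowns (-0.70 and -0.65), and the knockdown 2 library without a suffix removed it in knockdown 2 (-0.61). A fold limit of 2 left 1 member higher and 0 lower in knockdown 1 and 2 higher and 0 lower in knockdown 2. With no fold limit there were 3 lower in knockdown 1, 2 lower in knockdown 2 and 3 higher between the knockdowns. Median-ratio scaling gave 1 higher between the knockdowns, HSPB1. The cause of these shifts was not tested.

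Over all genes, the calls higher and lower against control were 1422 and 1991 in knockdown 1 and 1406 and 2966 in knockdown 2, and 266 and 685 between the knockdowns. A mean of at least 5 FPKM tests fewer genes and gave 924 and 1284 in knockdown 1, and 1765 lower in knockdown 2 and 346 lower between the knockdowns. A fold limit of 2 gave 103 and 260, 213 and 390, and 25 and 11, and no fold limit gave 4133 and 4163, 3349 and 5772, and 1313 and 4362. Median-ratio scaling gave 486 higher and 312 lower between the knockdowns, so that 60.9% of the calls were higher in place of 28.0%, and 46.3% in place of 32.2% in knockdown 2 against control. With a GC correction 1230 genes were lower in knockdown 1, 1622 in knockdown 2 and 240 between the knockdowns, and the share of higher calls was 51.4% in knockdown 2 against control and 57.4% between the knockdowns. Adding 0.1 FPKM gave 1246 lower between the knockdowns. The median over all genes moved by less than 0.1 under these scalings.

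Deviations from the group mean correlated at -0.239 to 0.104 between libraries with the same replicate label, and 3 of 18 libraries and groups matched best on their own label. No pairing by label was seen in these values. As each mean rests on 3 libraries, they cannot show whether samples with the same label were prepared together. With the replicate label as a block, 1426 genes were higher and 1991 lower in knockdown 1, and no count of members changed (5 higher and 1 lower, 6 higher and 1 lower, and 0 and 0 in limma). HSPB8 is limited by depth in all 9 libraries.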
